A study of Homo sapiens with 3 samples.

Results

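The aminoacyl-tRNA synthetase genes are described here in cells with and without shRNAs against SNORD12B. The members are 35 genes taken by symbol, 19 for cytosolic and 16 for mitochondrial enzymes, out of 60554 genes in the table. All 35 were matched by gene identifier and all passed the filter on low counts. RNA was sequenced from KYSE30, a human cell line grown from an esophageal squamous cell carcinoma. The control's genotype is given as vector, yet its protocol names a scrambled, non-targeting shRNA, and the 2 other lines carried different shRNAs against the small nucleolar RNA SNORD12B. All 3 were stable lines in medium with 10% serum, infected for 24 hours and kept for 2 weeks in blasticidin at 5 ug/mL, and each line gave 1 library. Below, label 1 and label 2 stand for the libraries labelled shRNA 1 and shRNA 2.

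The libraries held 15146805 to 17336936 counts. Levels are given as CPM, the usual unit of counts scaled to the total of their library. SNORD12B had 7 counts in the control, 15 under label 1 and 1 under label 2. Its count was thus not lower than the control's under label 1. Scaled to library size, its ratio to the control was 2.16 (0.831 to 6.28) under label 1 and 0.126 (0.0028 to 0.982) under label 2. The ranges in brackets are intervals of counting error, explained below, and both are wide. So few reads cannot settle whether either shRNA lowered SNORD12B. The summed level of 10 squamous and epithelial markers was 6940 to 7351 CPM, most of it from the simple-epithelial keratins KRT8 and KRT18. Of the 9 that were tested, 6 stood below the control in both shRNA libraries (27.0% of all tested genes did). SOX2 stood at 104, 12.2 and 38.9 CPM, KRT6A at 174.7, 90.1 and 51.4 CPM, TP63 at 157, 80.6 and 135 CPM and KRT14 at 19.01, 11.5 and 10.8 CPM in the control, label 1 and label 2, and KRT5 had 1 to 3 counts. The others below the control in both were KRT8 (4366, 4335 and 4340 CPM) and EPCAM (214, 208 and 189 CPM). KRT15 (22.8, 26.1 and 28.9 CPM) and KRT18 (1662, 1728 and 1747 CPM) stood above the control in both. CDH1, at 633, 449 and 678 CPM, stood below the control under label 1 and above it under label 2. SOX2 and KRT6A had an unadjusted p of 0.0044 and 0.0059 in edgeR's quasi-likelihood test, with an adjusted p of 1.00 for both. The part of these marker levels in the results below was not tested. Fibroblast markers summed to 9.34 to 16.01 CPM, nearly all from COL1A1, with COL1A2, DCN and LUM at 0 in every library. Blood cell markers summed to at most 0.23 CPM and endothelial markers to 0.921 to 5.81 CPM. In bulk RNA, fewer cells of a type and less RNA per cell cannot be told apart.

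Each synthetase joins an amino acid to its matching tRNA, the step that sets which residue a codon adds to a protein. The cytosol and the mitochondria use mostly separate enzymes, all encoded in the nucleus, and those for mitochondria have symbols ending in 2. GARS1 and KARS1 each encode the glycyl or lysyl enzyme of both compartments, EPRS1 encodes a joined glutamyl and prolyl enzyme, and FARSA with FARSB encode the subunits of the cytosolic phenylalanyl enzyme. Several cytosolic enzymes sit in a multisynthetase complex held together by the scaffold proteins AIMP1, AIMP2 and EEF1E1. Many cytosolic synthetase genes are known targets of ATF4, a transcription factor made in larger amounts when cells lack amino acids or fold proteins poorly.

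Cytosolic enzymes had the higher RNA levels. In RPKM, which is CPM divided by exon length in kilobases, the median control level was 33.5 for the 19 cytosolic genes and 5.26 for the 16 mitochondrial genes, a ratio of 6.36, against a median of 4.26 over 17801 tested genes. TARS1, the threonyl enzyme, was the highest member in the control at 70.5 RPKM, followed by AARS1 (alanyl) at 66.2, GARS1 at 64.4 and IARS2 (mitochondrial isoleucyl) at 54.8 RPKM. IARS2 was thus the only mitochondrial enzyme among the 15 highest members, just ahead of its cytosolic counterpart IARS1 at 54.4 RPKM. At the low end stood SARS2 (mitochondrial seryl) at 1.39 RPKM, WARS2 (mitochondrial tryptophanyl) at 2.56 and CARS2 (mitochondrial cysteinyl) at 2.70 RPKM. SARS2 shares 46.2% of its exonic bases with a gene on the same strand, and the header names no option for counting reads that fall on several genes, so its level may be understated. VARS2 shares 22% of its exonic bases with GTF2H4 in the same way. Lengths here are the union of all annotated exons, which lowers RPKM for genes with long exons that are seldom used.

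**Figure D1:**
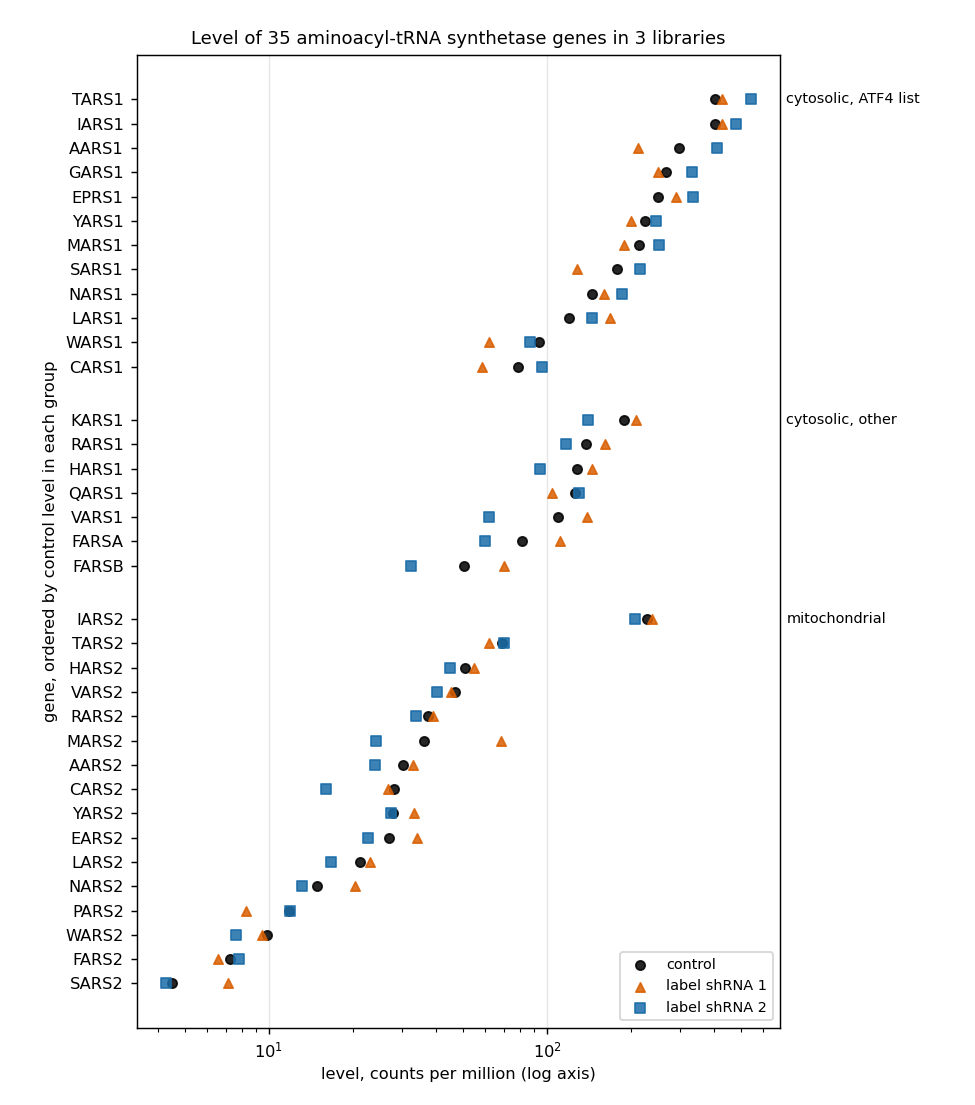
Levels of the 35 synthetase genes in CPM on a log axis, 1 point per library, grouped as cytosolic genes on the ATF4 list, other cytosolic genes and mitochondrial genes. Control levels run from 4.49 for SARS2 to 403 for TARS1, and in the first group the squares (label 2) lie right of the circles (control) for 11 of 12 genes.

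For 13 amino acids both compartments have a gene of their own in the member list with matching names. The cytosolic gene had the higher RPKM in 12 of these 13 pairs in the control and in 11 pairs in every library. The median ratio of cytosolic to mitochondrial level was 3.26 in the control, 3.99 under label 1 and 5.51 under label 2. The seryl pair lay furthest apart, with SARS1 at 46.6 RPKM against the 1.39 of SARS2. HARS1 and HARS2, the histidyl pair, lay at 15.2 and 14.8 RPKM in the control and in reversed order, at 11.2 and 13.2 RPKM, under label 2. For the methionyl pair the ratio of MARS1 to MARS2 was 2.55 in the control, 1.19 under label 1 and 4.5 under label 2.

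**Figure D2:**
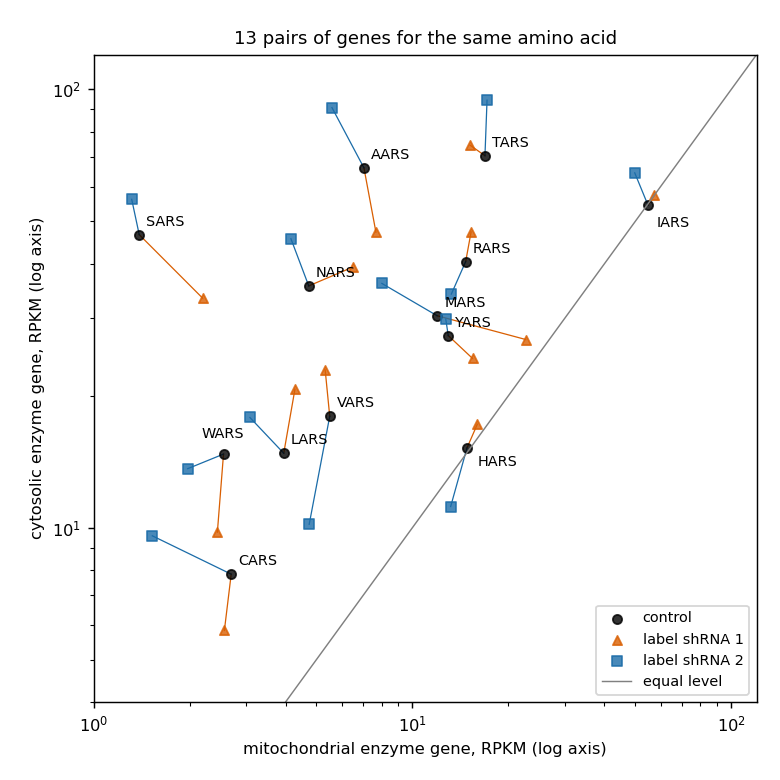
Level of the cytosolic against the mitochondrial gene for the same amino acid in RPKM, both axes logarithmic, for 13 pairs in 3 libraries, with lines joining each control point to the points of label 1 and label 2. IARS in the control and under label 1 and HARS in the control lie next to the line of equal level, HARS lies below it under label 2, and the 11 other pairs lie above it in all 3 libraries.

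No member passed the test of the shRNA lines against the control. With both shRNA libraries set against the lone control in edgeR's quasi-likelihood test, 0 of 35 members passed an adjusted p of 0.05 in either direction, and 0 passed an unadjusted p of 0.05. Among all tested genes 0% passed the adjusted threshold, and at the unadjusted one 0.410% were higher and 0.921% lower. DESeq2, limma-voom and edgeR's likelihood ratio test also called 0 members. Fitted log2 fold changes ran from -0.40 for CARS2 (SE 0.41) to 0.38 for LARS1 (SE 0.31), with the smallest unadjusted p at 0.251 and every adjusted p at 1.00. The median fold change was 0.02 on the log2 scale for cytosolic and -0.04 for mitochondrial genes, beside 0.01 over all tested genes. With no replicate cultures, these p-values weigh the difference from the control against the spread of the 2 shRNA lines, on 1 residual degree of freedom. That spread is moderated with 8.35 prior degrees of freedom drawn from all tested genes. The lone control is taken to vary as the shRNA lines do. A p above the threshold therefore does not show that a gene was unaffected.

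The members lay on opposite sides of the control in the 2 shRNA libraries more often than on the same side. This held for 26 of 35 members, beside 44.8% of all tested genes. Of these, 16 stood above it under label 1 but below it under label 2 (background 23.3%), and 10 were the other way round (background 21.5%). Both shRNA libraries exceeded the control for 5 of 35 (background 28.2%), namely EPRS1, IARS1, LARS1, NARS1 and TARS1. Another 4 were below it in both (background 27.0%), namely WARS1, CARS2, VARS2 and WARS2; only VARS2 of these 4 has no exon overlapped on the opposite strand, so 1 remains when genes with such overlap are left out. The comparisons with the control share 1 library, so the 2 lines are given side by side below, each as a ratio of counts scaled to library size with an exact 95% interval. These intervals address counting error only and say nothing on how far cultures vary. They treat each read as independent, although reads copied by PCR are not, so they may be too narrow even for counting error. They narrow as counts rise, and the median control level was 81.5 CPM for the members against 16.1 CPM over all tested genes. Shares of intervals clear of 1 are therefore not matched for level with their background. Calls of 1.5-fold use log-CPM.

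A list of 12 cytosolic synthetases known as ATF4 targets held AARS1, CARS1, EPRS1, GARS1, IARS1, LARS1, MARS1, NARS1, SARS1, TARS1, WARS1 and YARS1. The list was drawn with earlier results of these data known, and VARS1 was left off it. Its counts beside the background therefore describe and do not test. Under label 2, 11 of the 12 stood above the control, beside 49.7% of all tested genes, and for all 11 the interval lay above 1 (background 23.3%). The interval background is not matched for level, as the median control level was 219.5 CPM on the list and 16.1 CPM over all tested genes. The median log2 ratio of the 12 was 0.28, against 0.00 over all tested genes. Under label 1 the list was divided, with 7 members below the control (background 48.5%) and 5 above (background 51.5%), and a median log2 ratio of -0.14. Of the 12, 0 reached 1.5-fold above the control under label 2 (background 9.38%), and under label 1 only WARS1 was 1.5-fold below it (background 12.7%).

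The promoters of several of these genes hold a match to a searched motif. RefSeq windows from 250 bases before to 50 bases after the gene start (GRCh38.p14) were at hand for 30 members, and those of AARS2, LARS1, VARS1, VARS2 and YARS1 were not used here. They were searched on both strands for TGATGNAAN, the letters of the C/EBP-ATF response element, a kind of site that ATF4 is known to bind. It occurred in 7 of 10 genes of the ATF4 list, 0 of 6 other cytosolic genes and 1 of 14 mitochondrial genes (YARS2), beside 3.61% of all 35116 windows and 4.45% of 27305 genes. The narrower form TGATGCAA, contained in the first, occurred in 6 of the 10 and in no other member, beside 1.08% of genes. TGACGTCA, the full cAMP response element, occurred in 0 of the 30 members, beside 2.25% of genes. The 7 matches are shown because 6 of them hold the same 8 letters, read on one strand or the other. Only the N could differ, since the search itself fixed the other letters. Each is written 5′ to 3′ on the gene's strand with 32 bases before and 8 after the match, which is in capitals.
AARS1: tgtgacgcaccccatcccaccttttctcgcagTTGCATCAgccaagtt
CARS1: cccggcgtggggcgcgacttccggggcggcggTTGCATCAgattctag
GARS1: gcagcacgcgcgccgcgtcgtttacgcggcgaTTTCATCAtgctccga
IARS1: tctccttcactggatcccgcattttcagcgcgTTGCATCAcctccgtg
MARS1: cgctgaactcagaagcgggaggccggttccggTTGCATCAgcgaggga
NARS1: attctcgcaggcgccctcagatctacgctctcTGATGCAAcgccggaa
TARS1: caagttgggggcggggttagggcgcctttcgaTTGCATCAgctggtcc

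In 5 of these genes TTGCATCA, the reverse complement of TGATGCAA, is on the gene's strand; NARS1 carries TGATGCAA itself, and GARS1 the looser TTTCATCA. The stretches lie at chr16:70289678-70289725 (AARS1, minus strand), chr11:3057410-3057457 (CARS1, minus), chr7:30594813-30594860 (GARS1, plus), chr9:92293695-92293742 (IARS1, minus), chr12:57488032-57488079 (MARS1, plus), chr18:57621807-57621854 (NARS1, minus) and chr5:33440935-33440982 (TARS1, plus). Positions count from the RefSeq start, where the first transcribed base is 1 and the base before it -1. The match begins at -33 for GARS1, -13 for IARS1, -4 for MARS1, -2 for CARS1, 3 for TARS1 and 15 for NARS1. In AARS1 it begins further upstream, at -187. The annotation that was counted has earlier starts for these genes, and by it only the AARS1 match lies upstream of its gene. CARS1, GARS1 and TARS1 each have 2 annotated starts, of which 1 window holds the match. A match describes letters and does not show that a factor binds there. All 7 genes stood above the control under label 2, by ratios from 1.18 (MARS1) to 1.37 (AARS1), whereas under label 1 only 3 of the 7 did (49.7% and 51.5% of all tested genes). Of the 3 list genes whose windows lack the motif, EPRS1 (1.33) and SARS1 (1.204) also stood above the control under label 2, and WARS1 did not.

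AARS1 had the largest gap between the shRNA libraries on the ATF4 list. It stood at 298 CPM in the control, 212 CPM under label 1 and 409 CPM under label 2. The ratio to the control was 0.713 (0.681 to 0.746) for label 1 and 1.37 (1.32 to 1.42) for label 2, on opposite sides of 1. SARS1, the cytosolic seryl enzyme, showed the same order with 179, 128 and 215 CPM in the control, label 1 and label 2. CARS1, the cytosolic cysteinyl enzyme, did so too with 78.6, 58.5 and 96.1 CPM. In these 3 genes label 1 was the lowest and label 2 the highest, and neither interval of a ratio to the control included 1.

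GARS1, which serves both compartments, stood at 267 CPM in the control, 249.6 CPM under label 1 and 332 CPM under label 2. MARS1, the cytosolic methionyl enzyme, stood at 214, 189 and 253 CPM, and 12.4% of its exonic bases are overlapped on the opposite strand, chiefly by ARHGAP9. YARS1, the cytosolic tyrosyl enzyme, stood at 225, 199.7 and 246 CPM, which gives ratios of 0.887 (0.844 to 0.931) and 1.09 (1.04 to 1.14). These 3 genes kept the order label 1, control, label 2, with smaller gaps than AARS1.

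The remaining members of the list did not have that order. TARS1 stood at 403, 426 and 540.1 CPM in the control, label 1 and label 2, with ratios of 1.06 (1.021 to 1.09) and 1.34 (1.30 to 1.38). EPRS1 stood at 252, 289.9 and 335 CPM, with ratios of 1.15 (1.10 to 1.203) and 1.33 (1.28 to 1.39). NARS1, the cytosolic asparaginyl enzyme, stood at 146, 161 and 187 CPM, and IARS1 at 403, 424 and 477 CPM. In these 4 genes both shRNA libraries lay above the control and label 2 was the highest. LARS1, the cytosolic leucyl enzyme that also takes part in leucine sensing for mTOR, was the exception on the list, being highest under label 1. It stood at 119.98 CPM in the control, 168 CPM under label 1 and 145 CPM under label 2.

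WARS1, the cytosolic tryptophanyl enzyme and a gene known to be induced by interferon gamma, was the only gene of the list below the control in both libraries. Its level was 93.5 CPM in the control, 62.1 CPM under label 1 and 86.6 CPM under label 2, with ratios of 0.664 (0.611 to 0.721) and 0.926 (0.861 to 0.996). A gene on the opposite strand overlaps 10.6% of its exonic bases, so its level is uncertain. Of 9 tested interferon gamma genes, 7 were below the control under label 1 (background 48.5%) and 8 above it under label 2 (background 49.7%), with median log2 ratios of -0.55 and 0.52. The 3 of them with the largest fitted change were GBP2 at 23.2, 2.89 and 15.1 CPM, PSMB8 at 13.2, 11.4 and 25.4 CPM and CXCL10 at 13.2, 12.2 and 22.2 CPM in the control, label 1 and label 2. Exons on the opposite strand cover 21.2% of PSMB8. Their part in the WARS1 values was not tested.

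**Figure D3:**
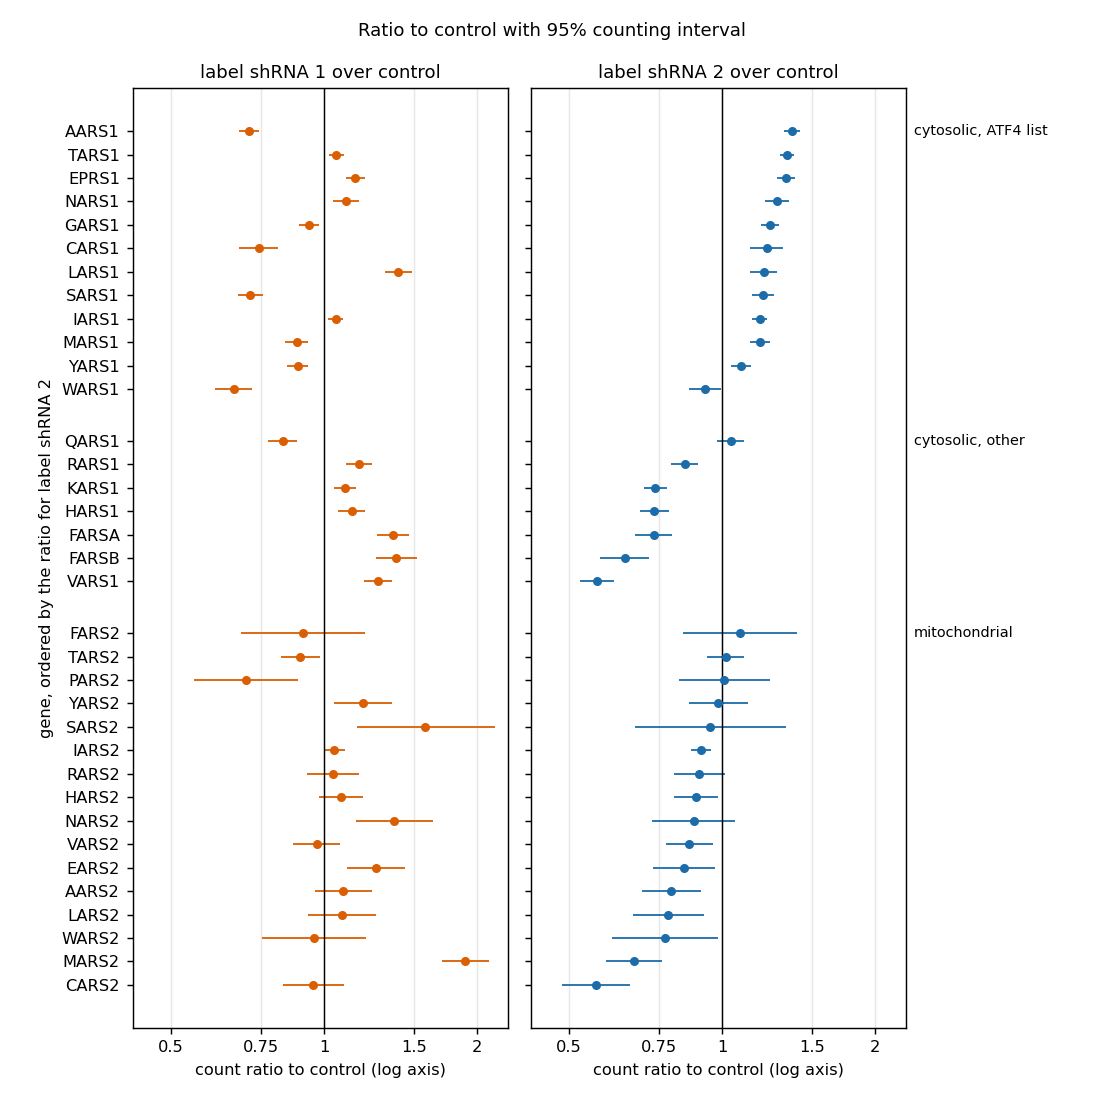
Ratio of each member's count to the control, scaled to library size, for label 1 (left) and label 2 (right), on log axes, where bars are exact 95% intervals of counting error and the vertical line marks equality. Under label 2, 11 of 12 ATF4-list genes lie right of the line and 6 of 7 other cytosolic genes left of it, and under label 1 the same 6 of 7 lie right of it.

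The 7 cytosolic genes outside the ATF4 list lay mostly on the other side. Under label 2, 6 of 7 were below the control (background 50.3%), all 6 with intervals below 1 (background 24.2%), and the median log2 ratio was -0.44. Under label 1 the same 6 genes were above the control (background 51.5%), all with intervals above 1 (background 25.6%), and the median log2 ratio was 0.22. The interval backgrounds are again not matched for level (median control level 125.8 CPM against 16.1 CPM over all tested genes). The difference between this group and the ATF4 list was not tested, since each line has 1 library. Whether VARS1 belongs on the ATF4 list was not settled here, and leaving it off shaped the split between the groups. Had VARS1 been counted there, 11 of 13 genes rather than 11 of 12 would have been higher under label 2 than under label 1. The other cytosolic genes would then have given 1 of 6 rather than 1 of 7.

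VARS1, the cytosolic valyl enzyme, was the cytosolic gene furthest below the control under label 2. It stood at 109 CPM in the control, 139 CPM under label 1 and 61.9 CPM under label 2, with ratios of 1.28 (1.196 to 1.36) and 0.567 (0.525 to 0.612). The genes of the phenylalanyl subunits had the same order of libraries. FARSA stood at 81.5, 111 and 59.7 CPM and FARSB at 50.5, 69.9 and 32.4 CPM in the control, label 1 and label 2. Their ratios were 1.37 (1.27 to 1.47) and 1.39 (1.26 to 1.52) under label 1, and 0.733 (0.674 to 0.796) and 0.643 (0.576 to 0.717) under label 2. VARS1 and FARSB were the cytosolic members at least 1.5-fold below the control under label 2. These are 2 of 19, a share near the 9.92% of all tested genes.

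KARS1, the lysyl enzyme of both compartments, stood at 189 CPM in the control, 208 CPM under label 1 and 139.8 CPM under label 2. Its ratio of 0.739 (0.700 to 0.781) under label 2 contrasts in direction with GARS1, the other gene that serves both compartments, at 1.24 (1.19 to 1.29). RARS1, the cytosolic arginyl enzyme, stood at 138, 162 and 117 CPM in the control, label 1 and label 2. QARS1, the glutaminyl enzyme, was the gene of this group that went the other way, at 126, 104 and 131 CPM. Its ratio of 1.04 (0.978 to 1.10) under label 2 included 1, whereas that of 0.829 (0.775 to 0.886) under label 1 did not.

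HARS1 and HARS2 are neighbours on chromosome 5 that point away from each other. Their RefSeq starts are at 140691370 (HARS1, minus strand) and 140691455 (HARS2, plus strand), which leaves 84 bases between them, at chr5:140691371-140691454. That stretch is shown on the plus strand because it separates the RefSeq starts of a cytosolic and a mitochondrial enzyme gene. In the annotation that was counted these genes overlap, and the stretch lies within the span of HARS1. The stretch is in lower case throughout, as the windows of both genes hold none of the searched motifs.
HARS1-HARS2: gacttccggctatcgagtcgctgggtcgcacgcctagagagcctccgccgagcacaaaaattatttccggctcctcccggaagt

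HARS1 stood at 128 CPM in the control, 145 CPM under label 1 and 94.2 CPM under label 2. For HARS2 the levels were 50.5, 54.4 and 44.9 CPM. Both were highest under label 1 and lowest under label 2, with ratios to the control for label 2 of 0.735 (0.688 to 0.785) and 0.889 (0.804 to 0.983). Other exons cover 18.3% of HARS1 and 17.4% of HARS2 on the opposite strand, in part exons of each other, so both levels are uncertain if strands were not separated.

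Members of the multisynthetase complex lay on both sides of the control. Of its 7 enzymes among the members, EPRS1, IARS1, LARS1, MARS1 and QARS1 were above the control under label 2, and KARS1 and RARS1 below (background 49.7% above). Under label 1, 5 of the 7 were above the control (background 51.5%). The scaffold genes stood higher under label 1 than under label 2 in all 3 cases. AIMP1 stood at 41.6, 53.8 and 43.9 CPM, AIMP2 at 49.6, 73.8 and 42.7 CPM and EEF1E1 at 3.19, 6.64 and 3.56 CPM in the control, label 1 and label 2. Their median log2 ratio of label 2 to label 1 was -0.79, beside 0.17 for the 7 enzymes and 0.00 for all tested genes. Exons on the opposite strand cover 28.9% of AIMP2 and 11.6% of AIMP1, and exons on the same strand 18.7% of EEF1E1, so all 3 levels are uncertain.

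Mitochondrial synthetases were mostly below the control under label 2. There 13 of 16 lay below it (background 50.3%), 9 of them with intervals below 1 (background 24.2%), and the median log2 ratio was -0.18. The interval background is not matched for level (median control level 28.1 CPM against 16.1 CPM over all tested genes). Under label 1, 10 of 16 lay above the control (background 51.5%) and the median was 0.09. Summed over the 16 genes, the level was 650.3 CPM in the control, 709.6 CPM under label 1 and 572 CPM under label 2. For the 19 cytosolic genes the sums were 3501, 3507.5 and 3957 CPM in the same order, so label 2 had the highest cytosolic and the lowest mitochondrial sum. Within the cytosolic genes, the ATF4 list summed to 2678, 2568 and 3322 CPM. The other cytosolic genes summed to 823, 940 and 636 CPM, also lowest under label 2. IARS2 alone held 228 CPM of the control's mitochondrial sum.

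MARS2, the mitochondrial methionyl enzyme, differed most between the shRNA libraries of all members. It stood at 36.1 CPM in the control (554 counts), 68.4 CPM under label 1 (1040 counts) and 24.2 CPM under label 2 (421 counts). The ratio was 1.90 (1.71 to 2.11) for label 1 and 0.671 (0.590 to 0.763) for label 2. Its cytosolic counterpart MARS1 had the reverse order. MARS2 and SARS2 were the mitochondrial members at least 1.5-fold above the control under label 1. These are 2 of 16, a share near the 10.8% of all tested genes. SARS2 rests on few reads, with 69, 108 and 74 counts in the control, label 1 and label 2 and a ratio for label 1 of 1.58 (1.16 to 2.17).

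CARS2 was the mitochondrial gene furthest below the control under label 2. It stood at 28.3, 26.9 and 15.98 CPM in the control, label 1 and label 2, with a ratio of 0.566 (0.485 to 0.659) for label 2. It was the only 1 of 16 mitochondrial members at least 1.5-fold below the control there (background 9.92%), whereas MARS2 just missed that limit. CARS1, its cytosolic counterpart, was above the control in the same library. NARS2 (mitochondrial asparaginyl) stood at 14.9, 20.45 and 13.1 CPM and EARS2 (mitochondrial glutamyl) at 27.0, 34.2 and 22.8 CPM. LARS2 (mitochondrial leucyl) stood at 21.3, 23.1 and 16.7 CPM and AARS2 (mitochondrial alanyl) at 30.3, 33.0 and 24.0 CPM. All 4 were highest under label 1 and lowest under label 2. The interval of the ratio to the control included 1 for LARS2 and AARS2 under label 1 and for NARS2 under label 2.

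The remaining mitochondrial enzymes had ratios to the control of 0.772 to 1.08 under label 2. IARS2, the most abundant of them, stood at 228, 239 and 207 CPM in the control, label 1 and label 2. RARS2 (arginyl) stood at 37.4, 38.9 and 33.7 CPM, with a ratio for label 2 of 0.902 (0.802 to 1.013). VARS2 (valyl) stood at 46.5, 45.0 and 40.1 CPM, with a ratio for label 2 of 0.862 (0.776 to 0.958). Both were lowest under label 2. YARS2 (tyrosyl), the mitochondrial gene whose promoter window held TGATGNAAN, stood at 27.9, 33.2 and 27.4 CPM, with ratios of 1.19 (1.05 to 1.36) under label 1 and 0.982 (0.860 to 1.12) under label 2. WARS2 stood at 9.83, 9.40 and 7.59 CPM, with an interval below 1 for label 2 alone, at 0.772 (0.607 to 0.982). FARS2 (phenylalanyl), TARS2 (threonyl) and PARS2 (prolyl) were the 3 mitochondrial genes above the control under label 2, all with intervals that included 1. FARS2 stood at 7.23, 6.58 and 7.82 CPM and TARS2 at 68.8, 61.8 and 69.9 CPM. PARS2 stood at 11.8, 8.29 and 11.9 CPM, with a ratio of 0.703 (0.556 to 0.888) for label 1.

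Mitochondria also need helpers to charge some tRNAs. GATB, GATC and QRSL1 encode the amidotransferase that makes glutaminyl-tRNA there, and MTFMT formylates the initiator methionyl-tRNA. GATB stood at 12.6, 12.2 and 9.37 CPM and QRSL1 at 22.7, 24.9 and 18.97 CPM in the control, label 1 and label 2. GATC stood at 157, 149.5 and 136 CPM. These 3 were lowest under label 2, although exons on the opposite strand cover 39.1% of GATC and 11.96% of GATB, which makes both uncertain. MTFMT stood at 8.20, 13.5 and 9.43 CPM, highest under label 1, as was MARS2, whose product makes the substrate of this enzyme. All 4 helpers were lower under label 2 than under label 1 (background 50.1%). In edgeR's quasi-likelihood test 0 passed an adjusted p of 0.05 (background 0%). Among 6 other tRNA-related genes, 5 were below the control under label 2 (background 50.3%), 3 of them with intervals below 1 (background 24.2%). DTD1 stood at 45.5, 56.9 and 44.5 CPM, with an interval under label 2 that included 1, and DTD2 at 11.9, 13.8 and 7.65 CPM. AARSD1 (15, 26 and 3 counts) and PRORSD1P (18, 19 and 17 counts), both named for their low counts, rest on few reads. PTRHD1 stood at 18.4, 17.8 and 24.5 CPM. PTRHD1 is overlapped on the opposite strand over 12.9% of its exonic bases and DTD2 on the same strand over 16.3%.

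Set directly against each other, without the control, the shRNA libraries had different orders in different gene groups, which was not tested. Of the ATF4-list synthetases, 11 of 12 were higher under label 2 than under label 1, beside 49.9% of all tested genes, with a median log2 ratio of 0.38, and all 11 had intervals above 1 (background 28.1%). For the other cytosolic genes this was so in 1 of 7, with a median of -0.62, and for the mitochondrial genes in 3 of 16, with a median of -0.29. Intervals lay below 1 for 6 of the 7 and 12 of the 16 (background 28.4%). Neither interval background is matched for level. The split of the cytosolic genes rests on a list drawn with earlier results known, with VARS1 left off it. At least 1.5-fold higher under label 2 were 3 of 35 members, AARS1, SARS1 and CARS1, a smaller share than the background of 15.8%. At least 1.5-fold lower were 8 of 35 (background 14.8%), namely VARS1, FARSB, FARSA, HARS1, MARS2, CARS2, SARS2 and NARS2. EARS2, at a count ratio of 0.666, lay next to the limit. The 2 extremes were AARS1 at a ratio of 1.92 (1.85 to 2.01) and MARS2 at 0.354 (0.315 to 0.397).

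ATF4 itself with other known targets, and the interferon gamma genes, were also mostly higher under label 2 than under label 1. Of the 16 genes on the ATF4 target list, which counts ATF4 among them, 15 were higher under label 2 (background 49.9%), and the median log2 ratio was 0.92. All 9 tested interferon gamma genes were higher under label 2, with a median log2 ratio of 1.04, so the direction was not particular to the ATF4 lists. Relative to the control, 14 of the 16 were below under label 1 (background 48.5%), with a median of -0.52, and 13 above under label 2 (background 49.7%), with a median of 0.28. TRIB3, a pseudokinase gene, stood at 88.2, 67.0 and 188 CPM in the control, label 1 and label 2. PHGDH, the first enzyme of serine synthesis, stood at 197, 81.6 and 209.9 CPM, and ATF3, a stress-induced transcription factor, at 93.1, 49.4 and 76.0 CPM. ATF4 itself stood at 273, 199.4 and 291 CPM, and ASNS, asparagine synthetase, at 142, 79.0 and 276 CPM, both named here after their values were seen. The ATF4 mRNA does not report how much ATF4 protein is made. In edgeR's quasi-likelihood test of both shRNA lines against the control, 0 of the 16 passed at an adjusted or an unadjusted p of 0.05. Over all tested genes these shares were 0% adjusted and, unadjusted, 0.410% higher and 0.921% lower.

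**Figure D4:**
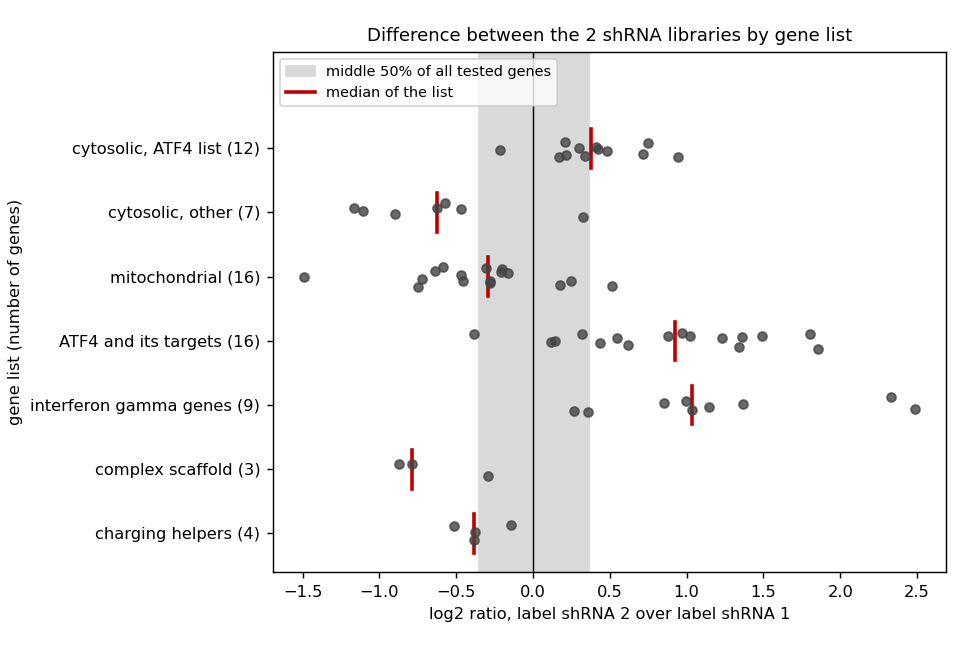
Log2 ratio of label 2 to label 1 for 7 gene lists, 1 point per gene, with the list median in red and the middle 50% of all tested genes in grey. Medians are 0.38 for the ATF4-list synthetases and 0.92 for ATF4 and its other targets, 1.04 for the interferon gamma genes, and below 0 for the other 4 lists.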

How the data were processed

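Raw counts per gene were deposited for 3 KYSE30 libraries, 1 control and 2 shRNA lines that the labels place in 1 group, called knockdown. Per the file headers, the authors ran featureCounts 1.6.4 on hg38 with strand option 1; the submitters' processing notes instead list TopHat2, HTSeq and hg19. Gene lengths were deposited as well. The sources used here do not name the library kit, so 16 members with exons overlapped on the opposite strand are uncertain, 5 of them over more than 10% of their exonic bases (bedtools 2.31.1).

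Of 60554 genes, 17801 passed filterByExpr. TMM factors were computed on whole-table totals. The test was edgeR 4.0.16's quasi-likelihood F test in R 4.3.3, two-sided, with Benjamini-Hochberg adjustment over all tested genes at 0.05; limma 3.58.1 and DESeq2 1.42.0 served as alternatives. An SE is the absolute log2 fold change over the square root of F. Single libraries were compared by log-CPM (prior count 2) and by count ratios with exact conditional 95% intervals. The code was tested on simulated data.

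Members, gene lists and the ATF4 grouping were chosen with earlier results of these data known. The rule for named genes asks for the level in each library of the 4 highest and 4 lowest fold changes per compartment, the 4 members that differ most between the shRNA libraries, any member at an unadjusted p under 0.05, and GARS1, KARS1, EPRS1, WARS1, HARS1 and HARS2. Other members are accounted for beyond it. Scaffold and helper genes are all named, and other lists give the 3 genes with the largest absolute fold change and at least 5 CPM. SOX2, KRT6A, TP63, KRT14, KRT8, KRT18, KRT5, EPCAM, KRT15 and CDH1 were named after their values were seen. A planned comparison of protein sequences was not made. Promoters are RefSeq's (GRCh38.p14), matched by symbol.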

Additional observations from a re-analysis of the deposited data

How the results depend on the processing

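No paired analysis was possible because the single control has no replicate number that it shares with both shRNA lines. The count of members called was 0 in the 8 alternatives with a test. Over all genes, where edgeR's quasi-likelihood test called 0, library totals without factors called 1 (0 higher, 1 lower), the likelihood ratio test 38 (2 higher, 36 lower), no filter 41 (4 higher, 37 lower), DESeq2 15 (1 higher, 14 lower) and limma-voom 1 (0 higher, 1 lower). Among the 19 members without opposite-strand overlap, 1 rather than 4 lay below the control in both libraries, and 6 of 6 rather than 11 of 12 genes of the ATF4 list were higher under label 2 than under label 1; fewer genes enter here by construction. Without label 1, the cytosolic median was 0.24 and the mitochondrial one -0.18, with 20 members below and 15 above the control in the remaining library. Without label 2, these were 0.080 and 0.087, with 14 below and 21 above. Fold changes near 0 turned sign in 6 of 264 refits: with limma-voom those of AARS1 (-0.013), FARSA (-0.0029), FARSB (-0.093) and RARS1 (-0.012), with no filter RARS1 (-0.0016), and with library totals FARS2 (0.011), and the cytosolic median was -0.013 with limma-voom; the cause was not tested. A prior count of 0.5 left all 70 single-library ratios within their counting intervals. The alternatives on the ATF4 list and the motif were chosen after seeing the data. SARS2, at 69 to 108 counts, is the member most limited by depth.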
